A study of Rattus norvegicus with 28 samples.

Results

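Nuclear-encoded respiratory chain genes were described here across 28 prefrontal cortex libraries from rats given psilocybin, ketanserin, both or neither. They are the records of the count table that are typed as protein-coding and whose symbols belong to the Ndufa, Ndufb, Ndufc, Ndufs, Ndufv, Sdh, Uqcr, Cox4 to Cox8 and Atp5 families. The rule uses names only and took 81 of 36387 records. It took 33 records of complex I, 4 of complex II, 7 of complex III, 19 of complex IV and 18 of complex V. Of the 81 records, 76 had enough counts to be tested, among 17404 tested in all.

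The respiratory chain lies in the inner membrane of mitochondria. Complex I oxidises NADH and complex II oxidises succinate, and both hand electrons to ubiquinone, from which they pass through complex III, cytochrome c and complex IV to oxygen. Complexes I, III and IV pump protons as they work, and ATP synthase, called complex V, uses the proton gradient to make ATP. Complex II is encoded in the nucleus alone, whereas the other complexes join nuclear subunits to subunits made from mitochondrial DNA. In cortex most ATP for synaptic signalling comes from this chain.

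The animals were adult male Sprague-Dawley rats, an outbred stock, aged 8 weeks on arrival. Each was injected with ketanserin, intraperitoneally, or with its vehicle, 5% Tween-80, and also with psilocybin or with its vehicle, saline, and prefrontal cortex was taken 24 h later. Psilocybin is a prodrug of psilocin, which activates serotonin receptors, while ketanserin is an antagonist that acts mainly at the 2A type of these. With 4 animals in each, the 7 groups were psilocybin at 1 mg/kg, psilocybin at 3 mg/kg, ketanserin at 1 mg/kg, ketanserin at 3 mg/kg, both drugs at 1 mg/kg of each, both drugs at 3 mg/kg of each, and vehicle, which had both vehicle injections. Psilocybin groups also had the Tween-80 injection and ketanserin groups the saline injection. The labels speak of the 2 injections both as one after the other and as simultaneous, and give no interval.

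Libraries held 12783067 to 18538414 counts, of which mitochondrially encoded genes took 6.98 to 11.6% and the respiratory chain genes 0.886 to 1.76%. No library was a copy of another of its group (chi-square per gene 5.98 to 137 between pairs within groups). Slc17a7, the vesicular glutamate transporter of cortical excitatory neurons, had 2100 to 2950 CPM (counts scaled to a common library size) in all 28 libraries. The summed oligodendrocyte markers ran from 3180 to 8800 CPM within the group given psilocybin at 1 mg/kg and from 2370 to 5830 CPM at 3 mg/kg. They ran from 3490 to 8590 CPM for both drugs at 1 mg/kg and from 3610 to 4560 for ketanserin at 1 mg/kg. As the tissue is bulk cortex, fewer cells of a type and less RNA per cell cannot be told apart. For the respiratory chain genes 2 libraries stood apart, replicate 1 of psilocybin at 3 mg/kg and replicate 4 of both drugs at 3 mg/kg, and group medians that rest on them are given with and without them. Replicate numbers follow the order of deposition and pair nothing across groups.

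Expression of these genes is classically tied to the transcription factors NRF1, the ETS factor GABP (also called NRF2) and YY1, whose motifs occur in promoters of many respiratory chain genes. RefSeq promoters of the GRCr8 build were taken from 250 bases before to 50 bases after the start of a gene. They were matched to 71 records by gene symbol, or for complex V by synonym, which gave 68 distinct promoters. The letters GCGCATGC (NRF1), CCGGAAG (ETS) and AAGATGGC (YY1) were searched on both strands, and no match shared bases with a match of another motif in the 68 promoters. NRF1 letters stood in 9 of 68 promoters (13.2%), against 680 of 21851 promoters of protein-coding genes (3.11%). ETS letters stood in 20 (29.4%), against 2346 (10.74%), and YY1 letters in 13 (19.1%), against 803 (3.67%). At least 1 of the 3 stood in 31 (45.6%), against 3511 (16.07%). By complex, any of the motifs was found across all 5, with ETS letters in 7 of 29 promoters of complex I, 2 of 4 of complex II, 3 of 6 of complex III, 4 of 14 of complex IV and 4 of 15 of complex V. These matches are descriptions of letters in a window and show no binding.

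Of the genes with the highest level in each complex, the promoters of Sdhb, Uqcrh and Cox4i1 held a match, and that of Ndufs1, the gene of complex I with the least variable level between libraries, held 1 as well. The 4 are shown so that the motifs can be read in place. The choice was by level in each complex, with Ndufs1 added, and only windows that held a match are printed. They are written 5′ to 3′ on the strand of the gene, in lower case, with motif matches in capitals. The windows are chr5:158547684-158547983 on the plus strand (Sdhb), chr5:134790833-134791132 on the minus strand (Uqcrh), chr19:65630133-65630432 on the plus strand (Cox4i1) and chr9:72073556-72073855 on the minus strand (Ndufs1).
Sdhb: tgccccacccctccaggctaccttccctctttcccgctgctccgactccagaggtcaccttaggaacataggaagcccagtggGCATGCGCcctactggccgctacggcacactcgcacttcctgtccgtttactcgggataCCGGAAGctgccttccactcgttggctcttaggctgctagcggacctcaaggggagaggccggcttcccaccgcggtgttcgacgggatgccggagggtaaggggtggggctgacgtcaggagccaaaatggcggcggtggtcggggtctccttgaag
Uqcrh: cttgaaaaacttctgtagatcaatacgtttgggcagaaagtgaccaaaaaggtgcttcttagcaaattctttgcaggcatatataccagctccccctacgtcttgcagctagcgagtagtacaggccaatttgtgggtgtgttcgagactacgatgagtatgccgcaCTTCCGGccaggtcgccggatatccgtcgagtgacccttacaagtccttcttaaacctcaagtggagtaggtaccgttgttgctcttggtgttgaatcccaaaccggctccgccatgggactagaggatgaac
Cox4i1: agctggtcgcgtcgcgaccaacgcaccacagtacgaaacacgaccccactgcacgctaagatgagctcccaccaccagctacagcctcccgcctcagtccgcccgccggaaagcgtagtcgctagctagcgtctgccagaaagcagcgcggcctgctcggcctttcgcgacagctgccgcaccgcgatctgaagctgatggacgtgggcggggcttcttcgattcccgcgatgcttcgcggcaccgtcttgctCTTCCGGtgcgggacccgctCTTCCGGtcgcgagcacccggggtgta
Ndufs1: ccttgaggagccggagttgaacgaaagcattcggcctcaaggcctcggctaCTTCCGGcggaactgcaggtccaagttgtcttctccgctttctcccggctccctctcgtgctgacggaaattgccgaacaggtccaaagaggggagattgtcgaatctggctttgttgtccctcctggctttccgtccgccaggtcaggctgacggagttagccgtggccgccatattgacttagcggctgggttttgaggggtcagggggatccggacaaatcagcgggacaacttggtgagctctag
In the Sdhb window the NRF1 letters, read on the minus strand, stand at -167 and the ETS letters at -108 from the start. Cox4i1 holds the ETS letters at 4 and at 24 bases after its start, both on the minus strand. Uqcrh holds them at -83 and Ndufs1 at -199, also on the minus strand. In the windows of Ndufa4 and Atp5b, the highest genes of complexes I and V, none of these letters was found.

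Levels between genes can only be compared per length, so they are given as the authors' FPKM (fragments scaled for gene length and library size), as a mean over 28 libraries. Cox4i1, a regulatory subunit of cytochrome c oxidase, was the highest of the 81 at 1003 FPKM, with 567.2 to 1587 across libraries. Atp5b, the catalytic beta subunit of ATP synthase, followed at 886.4 FPKM, Cox6a1 at 776.2 and Cox8a at 744.9, the last pair being the widely expressed isoforms of small complex IV subunits. The ranges of these 4 genes across libraries overlapped. In complex I the order opened with Ndufa4 at 336.8 FPKM, a subunit first assigned to complex I and later found with complex IV, and Ndufb8 at 327.3. Of the core subunits that carry the electron path of complex I, Ndufv1, which binds NADH, had 180.4 FPKM. Ndufs1, the large iron-sulphur subunit, had 59.34. The median over the records of complex I was 151 FPKM, between these values. The 4 subunits of complex II lay close together, at 147.5 (Sdhb), 120.4 (Sdha), 118.8 (Sdhc) and 85.34 FPKM (Sdhd). Complex III ran from Uqcrh at 252.7 to Uqcrb at 36.13 FPKM.

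**Figure D1:**
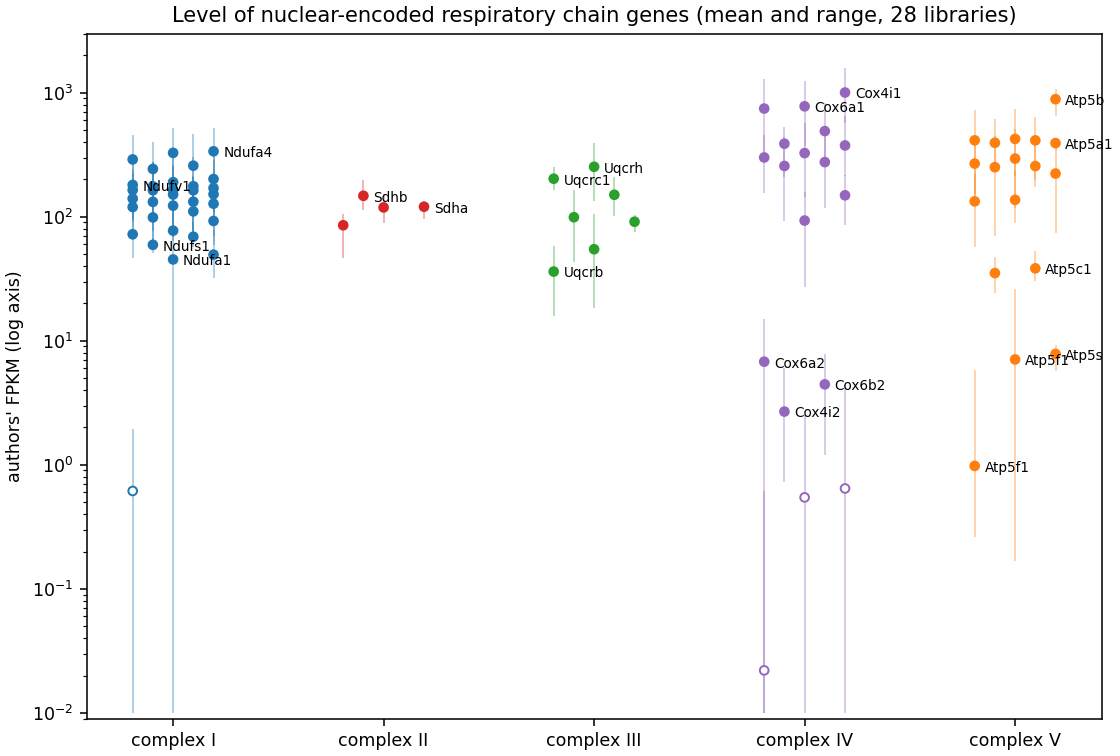
Mean level of each gene record over 28 libraries (points, authors' FPKM, log axis) with the lowest and highest library (lines, cut at 0.01), by complex. Filled points are the 76 tested records and open points those with too few counts, and Cox6c1, at 0 throughout, is not drawn. Cox4i1 is highest at 1003 FPKM, and the lowest points include the complex IV isoforms and records of Atp5f1 and Ndufa13, symbols with 2 records.

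In complex III the core subunits were Uqcrc1 at 202.5 FPKM, the Rieske iron-sulphur protein Uqcrfs1 at 150.3 and Uqcrc2 at 91.12. In complex IV, Cox6c followed the genes above at 490.3 FPKM, then Cox5b at 387.8, Cox5a at 300.5, Cox7b at 275.6 and Cox7a2 at 256.6, all small nuclear subunits around the mitochondrially encoded core. In ATP synthase the alpha subunit gene Atp5a1 had 392.2 FPKM, less than the 886.4 of its partner Atp5b, and their ranges over libraries, 348.1 to 421 and 648.2 to 1070, did not overlap. Of the other parts of the F1 head, Atp5e had 412.9 FPKM and Atp5d 133. The c ring, through which protons turn the enzyme, is a single protein encoded by 3 genes, of which Atp5g3 had 394.5 FPKM, Atp5g1 294.1 and Atp5g2 222.9, with overlapping ranges.

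Isoforms known from other tissues were near the floor. Cox4i2, the isoform of Cox4 known from lung, had 2.686 FPKM, Cox6a2, the heart and muscle isoform, 6.782, and Cox6b2, known from testis, 4.452. The 5 records not tested were Cox8b, with at most 20 counts in a library, Cox7b2 with at most 9, Cox8c with 5 counts in 1 library and 0 in 27, Cox6c1 at 0 in all 28, and a second Ndufa13 record with at most 11. The symbols Ndufa13, Cox6b1 and Atp5f1 have 2 records each, and reads of near-identical copies can be divided between them or lost. Cox6b1 had 325.8 FPKM in the record on chromosome 1 and 93.15 in the record on chromosome 2. Ndufb6 and Cox6a1 overlap a gene on their own strand, and Ndufa4, Ndufs3 and Atp5j one on the other strand, so that some of their reads may belong to a neighbour. The record of Atp5c1, the gamma subunit of ATP synthase, is 7359 bases long and its 38.35 FPKM is per that length. Atp5s and Atp5sl match the naming rule but are not standard subunits of ATP synthase.

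None of the 76 genes passed the test in any comparison of groups. Under edgeR's quasi-likelihood test with Benjamini-Hochberg adjustment over 17404 genes, 0 of 76 were called in each of the 6 comparisons with vehicle, against a share of all tested genes called of 0% for psilocybin at 1 mg/kg, 0% at 3 mg/kg, 0% for ketanserin at 1 mg/kg, 0% at 3 mg/kg, 0% for both drugs at 1 mg/kg and 0.00575% at 3 mg/kg. DESeq2 also called 0 of them in these comparisons. At an unadjusted p under 0.05 the genes passing were 1, Ndufa1, for psilocybin at 1 mg/kg (1.66% of all genes), and 2, Ndufa1 and an Atp5f1 record, at 3 mg/kg (3% of all genes). They were 0 for ketanserin at 1 mg/kg (2.06%) and 0 at 3 mg/kg (2%). They were 1, Ndufa1, for both drugs at 1 mg/kg (1.3%) and 1, Ndufs1, at 3 mg/kg (3.13%). For any difference among the 7 groups 0 were called (0.0172% of all genes) and 2, Ndufa1 and the Atp5f1 record, had an unadjusted p under 0.05 (2.22% of all genes). The median 95% interval of a log2 fold change reached 0.49 to either side, for a single gene without adjustment. A call after adjustment over 17404 genes asked for a larger difference. For a gene with the median interval, an estimate smaller than 0.49 was thus not set apart from 0 even without adjustment. Larger differences could also be missed, and the smallest difference detectable after adjustment was not worked out.

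Most fold changes of a comparison lay on the same side of 0. Against vehicle, 68 of 76 log2 fold changes were above 0 for psilocybin at 1 mg/kg and 69 of 76 at 3 mg/kg, where 47.5% and 47.8% of all genes were. The median log2 fold change was 0.10 and 0.16, against -0.01 over all genes in both. For ketanserin 31 of 76 were above 0 at 1 mg/kg (44.2% of all genes) and 6 of 76 at 3 mg/kg (45.4%), with medians of -0.02 and -0.18. For both drugs 9 of 76 were above 0 at either dose (46.9% and 46.4% of all genes), with medians of -0.13 and -0.12. As the genes are strongly correlated across libraries, these counts are not independent observations, and single libraries decide them. Without replicate 1 of psilocybin at 3 mg/kg the median of that group against vehicle was -0.05, and without replicate 4 of both drugs at 3 mg/kg that of its group was 0.05. Without replicate 2 of psilocybin at 1 mg/kg its median was -0.04. Without replicate 2 of vehicle the medians were 0.16 for ketanserin at 1 mg/kg, 0.02 at 3 mg/kg and 0.06 for both drugs at 1 mg/kg.

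**Figure D2:**
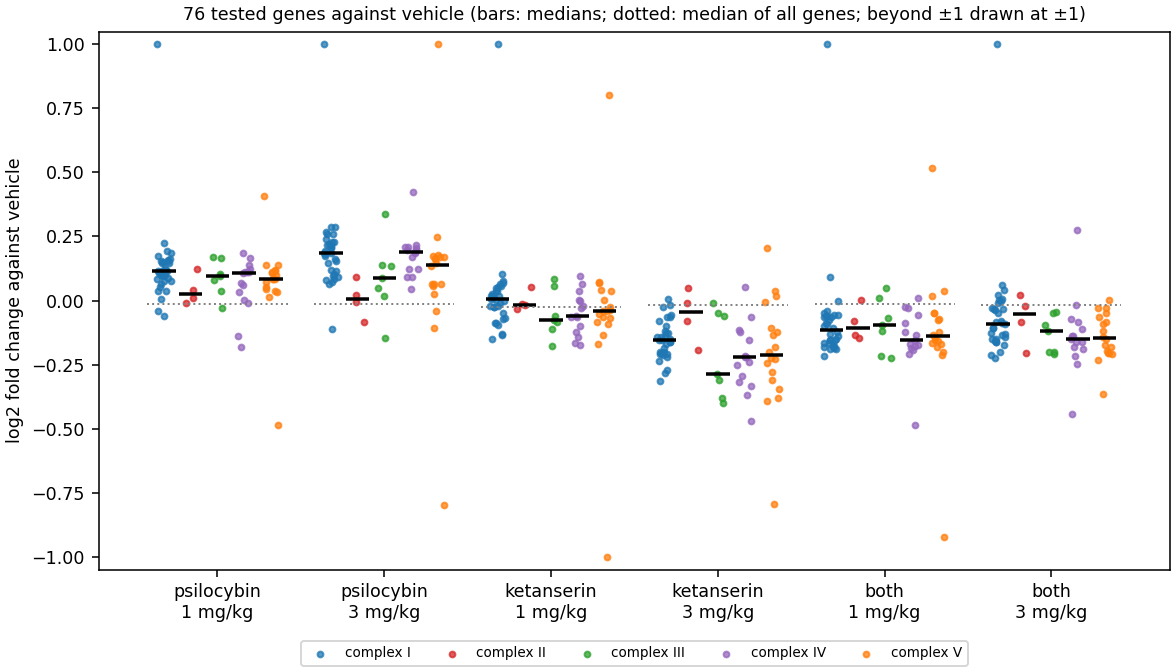
Log2 fold change against vehicle of the 76 tested genes in the 6 treated groups, by complex (points), with the median of each complex (black bars) and of all genes (dotted lines). Values beyond 1 or -1 are drawn at that limit. For ketanserin at 3 mg/kg the median is -0.29 in complex III and -0.04 in complex II, and none of the genes passed the test.

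Complexes differed in the size of their medians. For psilocybin at 3 mg/kg the median log2 fold change was 0.19 in complex I and 0.19 in complex IV, 0.14 in complex V, 0.09 in complex III and 0.01 in complex II. For ketanserin at 3 mg/kg it was -0.15 in complex I, -0.22 in complex IV, -0.21 in complex V, -0.29 in complex III and -0.04 in complex II. Without replicate 1 of psilocybin at 3 mg/kg, the medians of that group were -0.02 in complex I, -0.07 in complex IV, -0.09 in complex V, -0.04 in complex III and -0.08 in complex II. Without replicate 2 of vehicle, those of ketanserin at 3 mg/kg were 0.04 in complex I, -0.003 in complex IV, -0.01 in complex V, -0.11 in complex III and 0.01 in complex II. The size of these medians, many of their signs and part of the order of the complexes thus rest on single libraries. Complex III was lowest for ketanserin at 3 mg/kg in both cases. Complex I was highest, or level with the highest, for psilocybin at 3 mg/kg in both cases. For ketanserin at 1 mg/kg the 5 medians lay between -0.08 and 0.01, and those for both drugs between -0.16 and -0.10 at 1 mg/kg and between -0.15 and -0.05 at 3 mg/kg, or between -0.02 and 0.08 at 3 mg/kg without replicate 4. Within complex I the 7 core subunits had medians of 0.12 for psilocybin at 3 mg/kg and -0.10 for ketanserin at 3 mg/kg, and the 25 tested accessory subunits 0.20 and -0.16. Without the same libraries these were -0.03 and 0.05 for core and -0.01 and 0.03 for accessory subunits.

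Setting the combination against psilocybin alone, 8 of 76 log2 fold changes were above 0 at 1 mg/kg and 5 of 76 at 3 mg/kg, with medians of -0.22 and -0.29. No gene was called (0% of all genes in both), and an unadjusted p under 0.05 was found for 2 genes at 1 mg/kg, Atp5sl and Uqcrc1 (4.13% of all genes), and for 1 at 3 mg/kg, the Atp5f1 record (5.74%). At 1 mg/kg the median was -0.08 without replicate 2 of psilocybin and -0.34 without replicate 4 of psilocybin. At 3 mg/kg it was -0.07 without replicate 1 of psilocybin, -0.52 without replicate 2 of both drugs, and 0.10 with the libraries that stand apart left out together. Against ketanserin alone the combination had medians of -0.09 at 1 mg/kg and 0.06 at 3 mg/kg, with 0 genes called (0% in both) and 0 at an unadjusted p under 0.05 (2.92% and 3.41%). Without replicate 4 of both drugs at 1 mg/kg the median at 1 mg/kg was 0.01, and without replicate 2 of both drugs at 3 mg/kg the median at 3 mg/kg was -0.15, while without replicate 4 of that group it was 0.22. Between doses, 3 against 1 mg/kg, the medians were 0.05 for psilocybin, -0.16 for ketanserin and 0.00 for both drugs, again with 0 genes called (0% in each). At an unadjusted p under 0.05 there were 1 for psilocybin (3.24%), 0 for ketanserin (1.64%) and 0 for both drugs (3.3%). Without replicate 1 of psilocybin at 3 mg/kg the psilocybin median was -0.13, and without replicate 2 or 4 of both drugs at 3 mg/kg that of both drugs was -0.22 or 0.17. Without replicate 3 of ketanserin at 3 mg/kg the ketanserin median was -0.05. The interaction, the effect of the combination beyond the sum of the effects of each drug, had medians of -0.18 at 1 mg/kg and -0.08 at 3 mg/kg, with 0 genes called (0% in both). At an unadjusted p under 0.05 there were 0 at 1 mg/kg (4.09%) and 1, the Atp5f1 record, at 3 mg/kg (3.2%). At 1 mg/kg the median was -0.05 without replicate 2 of psilocybin and -0.38 without replicate 2 of vehicle. Without replicate 1 of psilocybin at 3 mg/kg the interaction median at that dose was 0.11, without replicate 2 of both drugs it was -0.31, and with both libraries that stand apart left out it was 0.25. These comparisons share the vehicle or single drug groups and are not independent of one another.

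The spread between animals of a group exceeded the spread between groups. A score per library was taken as the mean, over the 76 genes, of log2 CPM minus the mean of the gene over the 28 libraries. The scores were 0.037, 0.48, 0.227 and -0.273 for psilocybin at 1 mg/kg and 0.627, 0.0939, -0.0551 and 0.0002 at 3 mg/kg. They were 0.145, 0.109, 0.121 and -0.341 for ketanserin at 1 mg/kg and 0.118, -0.332, -0.486 and 0.062 at 3 mg/kg. The scores were -0.0243, 0.0484, 0.272 and -0.346 for both drugs at 1 mg/kg and -0.0843, 0.392, -0.0765 and -0.782 at 3 mg/kg, against -0.302, 0.457, -0.119 and 0.0321 for vehicle. The vehicle group and every group with ketanserin, alone or with psilocybin, thus held a library below -0.3 beside a library above 0. With psilocybin alone the lowest score was -0.273. The highest and the lowest of the 28 were the libraries named above, and each treated group overlapped the vehicle group. The SD of scores within groups was 0.326 and the SD of the 7 group means 0.12, where the within-group spread alone would give 0.163 for means of 4 libraries.

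Cox4i1 shows the pattern in a single gene. It had 758, 1024, 817 and 613 CPM for psilocybin at 1 mg/kg, and 1173, 734, 674 and 786 at 3 mg/kg. For ketanserin it had 856, 863, 781 and 552 CPM at 1 mg/kg and 789, 591, 523 and 779 at 3 mg/kg. For both drugs it had 656, 701, 859 and 529 CPM at 1 mg/kg and 691, 990, 660 and 411 at 3 mg/kg, against 556, 995, 609 and 757 for vehicle. Every treated group overlapped vehicle, and its log2 fold change against vehicle ran from -0.12 ± 0.24 for ketanserin at 3 mg/kg to 0.21 ± 0.24 for psilocybin at 3 mg/kg (SE, edgeR adjusted p 1 and 0.997).

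**Figure D3:**
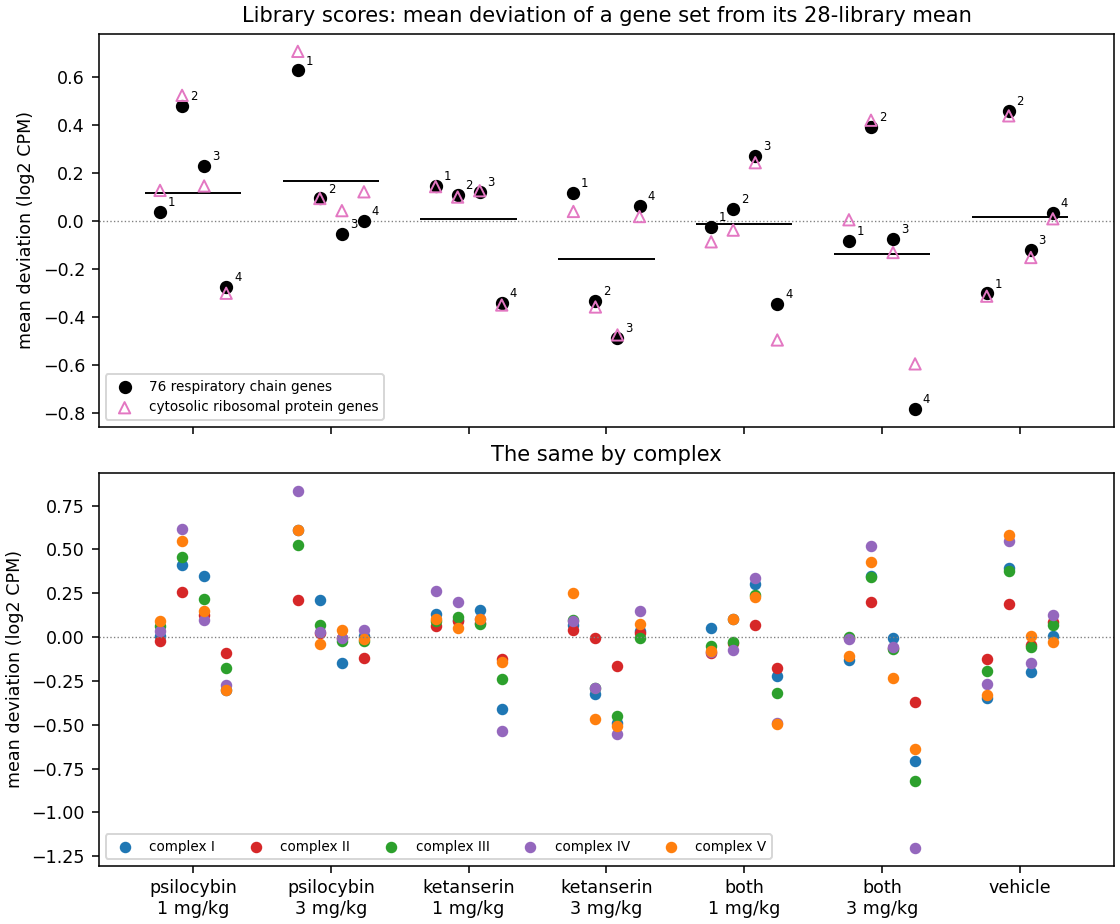
Upper panel: score of each library, the mean deviation in log2 CPM of the 76 genes (black points, replicate numbers beside them, bars for group means) and of cytosolic ribosomal protein genes (open triangles), by group. Lower panel: the same by complex. Scores run from -0.782 to 0.627, the 2 gene sets lie close together in each library, and complex IV spreads most and complex II least.

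Complexes kept in step across the 28 libraries. The score of complex III ran with that of complex IV at r = 0.979 and with that of complex I at 0.950, and the lowest of the 10 pairs was complex II with complex V at 0.878. These correlations describe the libraries, which share depth, scaling and length effects, and are not tests. The spread was not alike, however. The within-group SD of the score was 0.434 for complex IV, 0.341 for V, 0.318 for I, 0.288 for III and 0.145 for II.

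Other measures moved with the score of the genes, and their part in the results was not tested. Cytosolic ribosomal protein genes, which encode another set of short abundant mRNAs, had a score that ran with it at Pearson r = 0.973 and Spearman rho = 0.951 over 28 libraries. The r was 0.973 without the 2 libraries farthest from the median and 0.984 for deviations from group means. Mitochondrial ribosomal protein genes ran with it at r = 0.974 (rho = 0.955). The share of counts from mitochondrially encoded genes ran with it at r = 0.818 (rho = 0.792). Within a library, log2 CPM deviations of all genes correlated with gene length at a rho of -0.323 to 0.283, and that rho ran against the score at r = -0.916 (rho = -0.970). With gene length taken out of each library, the within-group SD of the score was 0.175 and the SD of group means 0.0615. The score of ribosomal protein genes adjusted in the same way still ran with it at r = 0.894 (rho = 0.84). For deviations from group means that r was 0.935. With length as an offset in the fit, the medians against vehicle were 0.06 and 0.04 for psilocybin, -0.02 and -0.08 for ketanserin and -0.06 and -0.08 for both drugs, at 1 and 3 mg/kg in each pair. Marker lists of cell types were also in step: 9 excitatory neuron markers ran against the score (r = -0.913), as did 7 astrocyte markers (-0.785) and 5 tested endothelial and mural markers (-0.786), while 7 interneuron markers ran with it (0.763). Oligodendrocyte (0.221), microglia (0.0167), striatum (0.342), choroid plexus (0.237), blood (-0.0867) and skeletal muscle genes (-0.229) were loosely related to it. The summed excitatory neuron markers ranged from 3380 to 4120 CPM for psilocybin at 1 mg/kg, 3470 to 3840 at 3 mg/kg, 3800 to 4210 for ketanserin at 1 mg/kg, 3630 to 4420 at 3 mg/kg, 3320 to 3870 for both drugs at 1 mg/kg, 3610 to 4550 at 3 mg/kg and 3510 to 3920 for vehicle, and none of the 9 was at 0 in a group.

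Leaving genes of low level aside (a log2 CPM averaging under 3), the 5 other genes whose log2 CPM ran closest to the score over 28 libraries were Rpl28 (r = 0.982), a protein of the large ribosomal subunit, Ppia (0.979), the cyclophilin A gene, the translation initiation factors Eif1 (0.978) and Eif1b (0.977), and Myeov2 (0.978).

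Members of the chain differed in how far they took part. The SD of log2 CPM over 28 libraries had a Spearman rho of -0.642 with gene length and -0.405 with level across the 76 genes, which are not independent. The median SD was 0.372 in the 48 genes under 1000 bases and 0.217 in the 28 longer ones. The typical gene tracked the mean of the other members closely, with a median r of 0.95 and r over 0.9 for 52 of 76. In 8 genes r was under 0.5, namely Sdha, Uqcrc2, Ndufs1, both Atp5f1 records, Ndufa1, Atp5s and Cox6b2.

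**Figure D4:**
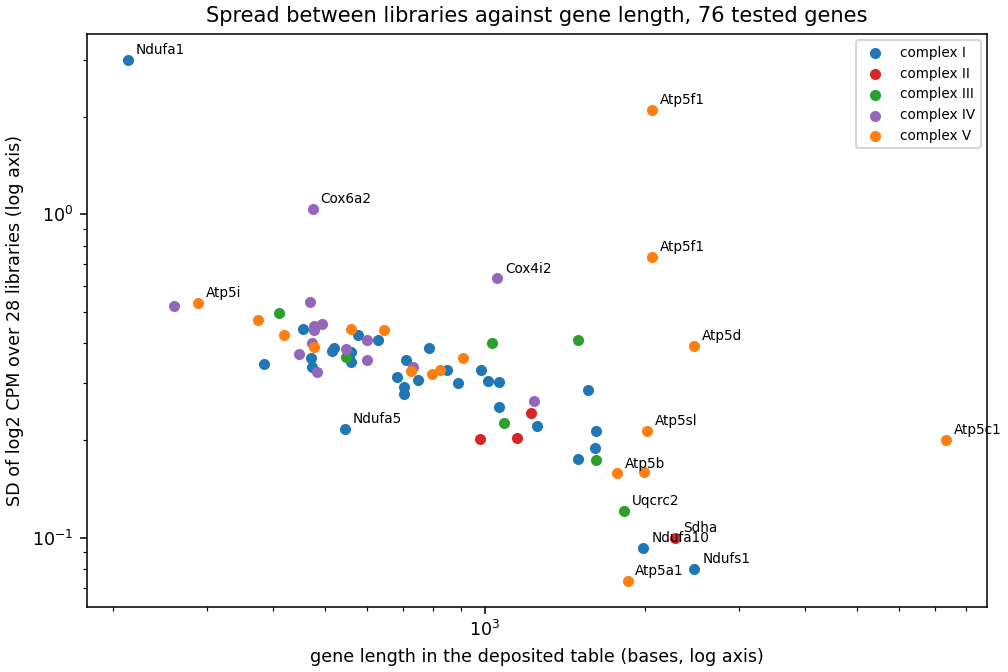
SD of log2 CPM over 28 libraries against the gene length in the deposited table for the 76 tested genes, coloured by complex, both axes on a log scale. Spread is smaller in longer genes (rho = -0.642), and Ndufa1 and the Atp5f1 records lie above the others of their length.

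The flattest genes were long ones, 4 of the 5 encoding catalytic or core subunits. Atp5a1, the alpha subunit of ATP synthase, had the smallest SD (0.0736), followed by Ndufs1 (0.0802), Ndufa10 (0.0931), an accessory subunit of complex I, Sdha (0.10) and Uqcrc2 (0.121), a core subunit of complex III. Sdha, the flavoprotein that oxidises succinate, ran against the other genes at r = -0.711. It had 222, 279, 261 and 293 CPM for psilocybin at 3 mg/kg, 289, 253, 283 and 278 for both drugs at 3 mg/kg and 299, 248, 277 and 294 for vehicle. Its lowest library was thus replicate 1 of psilocybin at 3 mg/kg, which had the highest score. Uqcrc2 ran at -0.232 with the others and Ndufs1 at -0.0966. Partners within a complex therefore differed. Sdhb, the iron-sulphur partner of Sdha, was highest among its group in that same library, at 196 CPM against 131 to 145 in the other 3.

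Ndufs1 had the smallest p among the 76 genes for ketanserin at 1 mg/kg, ketanserin at 3 mg/kg and both drugs at 3 mg/kg. For psilocybin Ndufs1 had 147, 161, 149 and 147 CPM at 1 mg/kg and 149, 152, 139 and 145 at 3 mg/kg, and for both drugs at 1 mg/kg 157, 151, 148 and 150. It had 143, 146, 146 and 141 CPM for ketanserin at 1 mg/kg, 142, 149, 144 and 143 at 3 mg/kg, and 149, 127, 151 and 144 for both drugs at 3 mg/kg, against 167, 144, 169 and 151 for vehicle. The vehicle libraries split, with replicates 1 and 3 above all those treated libraries and replicates 2 and 4 within or beside their range. The log2 fold change was -0.13 ± 0.07, -0.13 ± 0.07 and -0.14 ± 0.07 (SE), with unadjusted p of 0.0599, 0.0684 and 0.0413 and adjusted p of 1, 1 and 0.999 (edgeR). All 6 log2 fold changes were below 0, from -0.06 for both drugs at 1 mg/kg to -0.14, and all share the same 4 vehicle libraries. For both drugs against ketanserin at 1 mg/kg, Ndufs1 and Ndufa1 were the 2 genes of 76 with all 4 libraries higher (1.57% of all genes), and 0 had all 4 lower (1.56%).

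Uqcrc1 had the smallest p in the interaction at 1 mg/kg, with an estimate of -0.35 ± 0.17 on the log2 scale (SE, edgeR unadjusted p 0.0523, adjusted p 0.938). Uqcrc1 and Atp5sl were also lower for both drugs than for psilocybin at 1 mg/kg in the unadjusted test, by -0.27 ± 0.12 and -0.31 ± 0.14, with edgeR adjusted p of 0.894 for both. Ndufs7, an iron-sulphur subunit of complex I, and Ndufv1 ran with the other members at r = 0.961 and 0.867.

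Ndufa1, a small accessory subunit needed for the assembly of complex I, was present at 2 levels. Its record lies at chrX:124513269-124516705 on the minus strand of rn6 and is 213 bases long. Counts were 5, 8, 806 and 0 for psilocybin at 1 mg/kg and 14, 932, 0 and 4 at 3 mg/kg. They were 6, 5, 225 and 0 for ketanserin at 1 mg/kg and 9, 5, 2 and 4 at 3 mg/kg. They were 693, 684, 241 and 435 for both drugs at 1 mg/kg and 3, 6, 237 and 1 at 3 mg/kg, against 2, 10, 3 and 9 for vehicle. So 20 libraries had at most 14 counts and 8 had at least 225, with none between. How far the split lies in the assignment of reads to this short record, and not in the level of the gene, was not tested. The group given both drugs at 1 mg/kg was the only one with all 4 libraries at the upper level, and the ketanserin 3 mg/kg and vehicle groups had none there.

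For both drugs at 1 mg/kg against vehicle, Ndufa1 had a log2 fold change of 6.33 ± 2.15 (SE, 95% interval 1.88 to 10.8), with an unadjusted p of 0.00724 and an adjusted p of 1 (edgeR). It was the only 1 of the 76 genes with all 4 libraries higher, where 0.667% of all genes were, and 0 had all 4 lower (0.649%). A fit of the 2 groups alone gave the same log2 fold change of 6.33 with an adjusted p of 0.00472, the only call of a respiratory chain gene under any alternative, and all its other alternatives gave adjusted p of 0.996 to 1. In the fit of all groups, the spread of Ndufa1 includes the single high libraries of 4 other groups. Those single libraries set the fold changes there, since log2 fold changes against vehicle of 5.09 for psilocybin at 1 mg/kg, 3.29 for ketanserin at 1 mg/kg and 3.25 for both drugs at 3 mg/kg were -0.47, -0.60 and -0.87 without them. For psilocybin at 3 mg/kg the 5.07 was 0.07 without the library of 932 counts. For both drugs 3 against 1 mg/kg, Ndufa1 was the 1 gene with all 4 libraries lower (0.873% of all genes), and 0 had all 4 higher (0.465%). In the other 10 of 13 comparisons between a pair of groups, 0 of 76 genes had all 4 libraries on one side, where 0.396 to 1.73% of all genes did per direction.

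**Figure D5:**
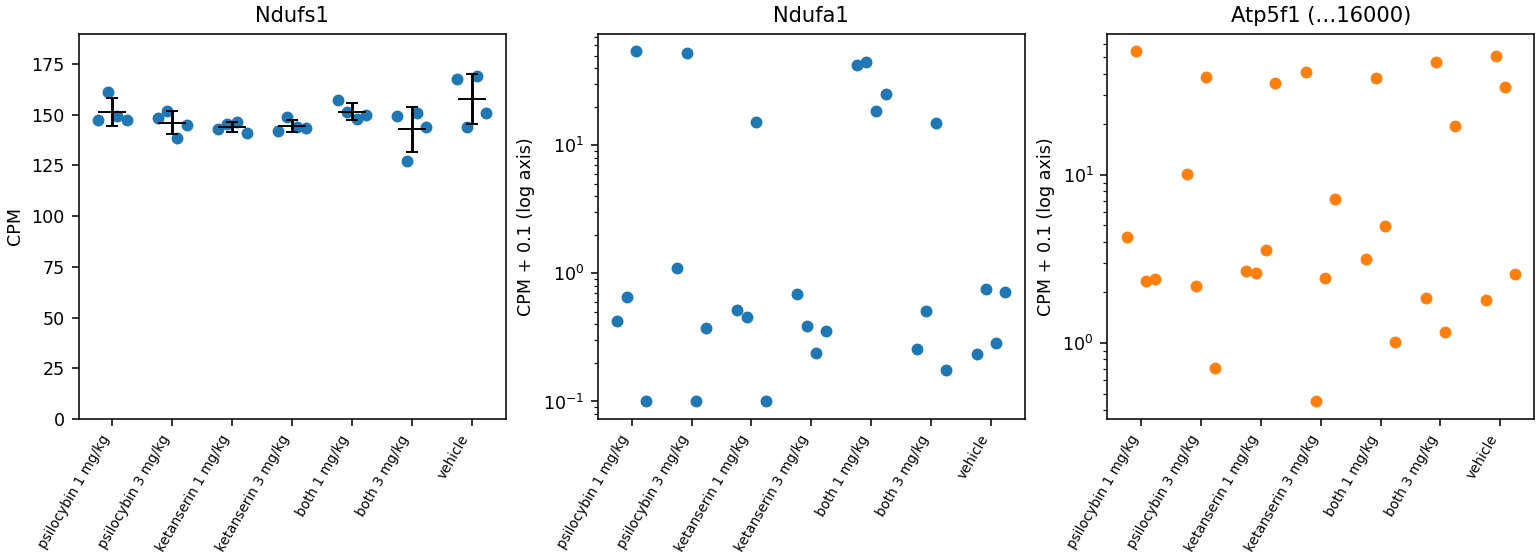
CPM of Ndufs1 (linear axis, with mean and SD of 4 libraries), of Ndufa1 and of the Atp5f1 record with the higher level (both as CPM + 0.1 on a log axis) in each library, by group. Ndufs1 varies little, Ndufa1 is high in all 4 libraries of both drugs at 1 mg/kg and in 1 library each of 4 other groups, and Atp5f1 is high in 9 libraries spread over all 7 groups.

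Atp5f1, which encodes the b subunit of the peripheral stalk of ATP synthase, also varied widely between libraries, without a gap as wide as that of Ndufa1 (0.934 against 3.76 on the log2 scale of CPM + 0.1). The record at chr2:208408890-208420163 had 254 to 793 counts in 9 libraries and 6 to 142 in the other 19. The high libraries were spread over all 7 groups, with 2 of both drugs at 3 mg/kg, 2 of vehicle and 1 of each other group. Its log2 fold changes against vehicle ran from -1.02 to -0.36, with standard errors of 1.46 to 1.48. The second record, at chr2:208566385-208577146, had 178 counts in replicate 4 of psilocybin at 3 mg/kg and 8 to 66 in the others. That library gave the record a log2 fold change of 1.68 ± 0.56 for psilocybin at 3 mg/kg against vehicle (SE, edgeR unadjusted p 0.0057, adjusted p 0.997). At 7.072 and 0.9798 FPKM, both records lay far below the other stalk subunits Atp5o (268.2), Atp5h (256) and Atp5j (136.8).

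Genes that serve the chain were looked at as lists, and none of the listed genes passed the test in the 15 comparisons between groups. Of 40 tested assembly factors, which build the complexes, 23 and 22 log2 fold changes were above 0 for psilocybin at 1 and 3 mg/kg, 22 and 7 for ketanserin, and 6 and 4 for both drugs. Their library score ran with that of the subunits at r = 0.958. Of 18 genes of mobile electron carriers and ubiquinone synthesis, among them Cycs, which encodes cytochrome c, 11 and 10 were above 0 for psilocybin, 11 and 6 for ketanserin and 1 and 5 for both drugs (r = 0.945). Cycs itself had 23.2 ± 4.09 CPM for psilocybin at 1 mg/kg and 17.7 ± 1.69 for both drugs at 1 mg/kg, against 19.4 ± 3.63 for vehicle (SD, n = 4). Of 7 tested nucleotide and phosphate carriers, which bring ADP and phosphate to ATP synthase, 7 and 6 were above 0 for psilocybin, 6 and 1 for ketanserin and 1 and 0 for both drugs (r = 0.942).

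Upstream pathways kept less in step. The 16 genes of the tricarboxylic acid cycle and pyruvate dehydrogenase, which supply NADH and succinate, had medians between -0.05 and 0.05 in all 6 comparisons with vehicle, and their score ran with that of the subunits at r = 0.313, or -0.0117 without the 2 libraries farthest from the median. The 17 regulators of mitochondrial biogenesis ran against the subunits at r = -0.612, and their medians lay between -0.02 and 0.03. Esrrg, a nuclear receptor that activates respiratory genes, had 13.6 ± 2.62 CPM for psilocybin at 3 mg/kg, against 19.6 ± 1.54 for vehicle (SD, n = 4, log2 fold change -0.53, p for any difference among 7 groups 0.0658 and adjusted p 1, edgeR). The 13 mitochondrially encoded genes, partners of these subunits in complexes I, III, IV and V, had medians of 0.13 and 0.02 for psilocybin, 0.13 and 0.04 for ketanserin and -0.08 and -0.01 for both drugs. At 3 mg/kg ketanserin, 8 of 13 mitochondrially encoded genes were above 0 while 70 of 76 nuclear ones were below. The nuclear genes are strongly correlated, and their median there, -0.18, was 0.02 without replicate 2 of vehicle. With length as an offset it was -0.08.

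Both sets of ribosomal protein genes followed the nuclear subunits. Of 84 tested cytosolic ribosomal protein genes, 72 and 75 were above 0 for psilocybin at 1 and 3 mg/kg, 34 and 10 for ketanserin and 17 and 27 for both drugs. Of 70 tested mitochondrial ribosomal protein genes, 54 and 59 were above 0 for psilocybin, 32 and 8 for ketanserin and 11 and 16 for both drugs. In the test of any difference among the 7 groups, 1 of these 70 was called, where 0.0172% of all genes were. This was Mrpl36 (edgeR adjusted p 0.0411). Outside psilocybin at 1 mg/kg, Mrpl36 was near the floor, with means under 1 CPM. It had 5.92 ± 3.2 CPM for psilocybin at 1 mg/kg and 0.442 ± 0.218 at 3 mg/kg, 0.327 ± 0.185 and 0.321 ± 0.359 for ketanserin at 1 and 3 mg/kg, and 0.793 ± 0.395 and 0.653 ± 1.01 for both drugs, against 0.465 ± 0.34 for vehicle (SD, n = 4).

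Genes of small p for any difference among the 7 groups were taken from each list, and unadjusted p of edgeR's test are given. Assembly factors had Ndufaf6 (0.13) and Coa6 (0.229), electron carriers Coq2 (0.257) and Cycs (0.282), and the tricarboxylic acid cycle Idh2 (0.252). Regulators had Esrrg (0.0658) and Esrra (0.218), and carriers Ckmt1b (0.452) and Slc25a3 (0.529). None of these 9 was under 0.05. Ribosomal proteins had Rpl35a (0.00803) and Rpl7a (0.0267), mitochondrial ribosomal proteins Mrpl36 (7.08e-06) and Mrpl53 (0.0015), and mitochondrially encoded genes Mt-nd4 (0.00616) and Mt-nd4l (0.0633), of which Mrpl36 alone passed after adjustment.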

How the data were processed

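Poly-A RNA from prefrontal cortex was made into strand-marked (dUTP) libraries, per the labels' protocols. The authors deposited raw read counts and FPKM values per gene, per the file headers. The submitters' processing notes name HISAT2 2.0.5, StringTie 1.3.3b, featureCounts 1.5.0-p3 and the build rn6. Whether counting used strand is not given in these sources. Library totals were 12783067 to 18538414 counts (median 15366977.5). With R 4.3.3 and edgeR 4.0.16, the counts of all 28 libraries were filtered with filterByExpr and scaled by TMM. A robust quasi-likelihood model with a mean per group (21 residual degrees of freedom) was tested for 15 contrasts and for any difference among 7 groups. P-values were adjusted by Benjamini-Hochberg over 17404 genes, with a call at an adjusted p under 0.05. Intervals are 95% and come from the same fit. Log2 CPM used a prior count of 2. FPKM was used only to compare levels between genes and was not tested. Single-gene splits were drawn as CPM + 0.1.

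The members and gene lists were chosen with earlier results of these data known. Named were genes called in any fit, those with the smallest p, the highest and lowest level per complex, the largest and smallest SD, a set of core subunits and isoforms, untested records, the 5 other genes closest to the score, and the 2 genes of smallest p per list; a few items under this rule are not reported here. The labels call the 4 samples of a group biological replicates. The tests therefore set differences against the spread between animals within groups, pooled over all 7 groups in the main fit. Alternatives were other scalings (RLE, upper quartile, mitochondrial rows removed), no filter, a gene length offset, only the groups compared, DESeq2 1.42.0, leaving out each library, and, chosen after seeing the data, leaving out both extreme libraries and leaving out each library for medians by complex. The fit was tested on simulated data.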

Additional observations from a re-analysis of the deposited data

Results flagged for a closer look

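In groups of 4 libraries, 182 combinations of group with score or named gene were searched for a library far from the other 3. The rule was a gap, relative to the range, above Dixon's 95% critical value for 4 samples. There were 31. Chance gives such a gap in about 1 of 20 independent samples, but that rate cannot be set against the 31. Some of the genes were named for a large SD or a small p in these same libraries. The scores and most of the genes are also correlated across libraries. The score of all genes was low in replicate 4 of ketanserin at 1 mg/kg (-0.341), as were those of complexes I (-0.409), II (-0.126) and III (-0.241). Replicate 1 of psilocybin at 3 mg/kg was high in complexes III (0.524), IV (0.836) and V (0.613).

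Among single genes in the psilocybin 3 mg/kg group, 1 library was high in CPM for Atp5sl (77.4), Atp5l (308), Ndufb8 (368), Ndufa4 (416), Uqcrh (218) and Cox4i2 (6.46). Ndufa1 had 1 high library for psilocybin at 1 mg/kg (54.2 CPM) and 3 mg/kg (52.6 CPM), ketanserin at 1 mg/kg (15 CPM) and both drugs at 3 mg/kg (14.7 CPM). The Atp5f1 record at 208408890 on chromosome 2 had 1 high library for psilocybin at 1 mg/kg (54.4 CPM), ketanserin at 1 mg/kg (35 CPM) and 3 mg/kg (41.1 CPM), and both drugs at 1 mg/kg (37.7 CPM). The other Atp5f1 record was high in 1 library of psilocybin at 3 mg/kg (12.1 CPM) and low in 1 of both drugs at 1 mg/kg (1.43 CPM) and 1 at 3 mg/kg (0.54 CPM). High single libraries were also found for Ndufs1 (161 CPM) and Cox4i2 (6.25 CPM) with psilocybin at 1 mg/kg, Ndufv3 (92.9 CPM) and Cox6a2 (5.31 CPM) with both drugs at 1 mg/kg, and Ndufa10 (176 CPM) with both drugs at 3 mg/kg. Low ones were found for Uqcrc1 (291 CPM) and Atp5b (1400 CPM) with ketanserin at 3 mg/kg.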

How the results depend on the processing

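The count of respiratory chain genes called was 0 under 290 of 291 alternatives and 1 (Ndufa1, both drugs at 1 mg/kg against vehicle) in a fit of only the groups compared; with the other groups out, the spread comes from those 2 groups. Of 241 alternatives for the median log2 fold change of the 76 genes, 239 moved it by less than the spread between replicates. That spread, the within-group SD of the score (0.326), was wider than the size of any median in the main fit, at most 0.29. A median could therefore change sign and still be counted among the 239, so this count does not show that the signs were stable. The exceptions were the medians for both drugs minus psilocybin at 3 mg/kg (0.10) and the interaction at 3 mg/kg (0.25) with both extreme libraries left out, an alternative chosen after seeing the data. For the related lists 712 of 714 alternatives moved a median by less than the within-group SD of that list's own score, a yardstick of the same kind. The tricarboxylic acid cycle median for both drugs at 3 mg/kg was the exception. Small medians still changed sign when 1 library was left out: against vehicle the range was -0.04 to 0.28 (1 mg/kg) and -0.05 to 0.34 (3 mg/kg) for psilocybin, -0.11 to 0.16 (1 mg/kg) and -0.27 to 0.02 (3 mg/kg) for ketanserin, and -0.22 to 0.06 (1 mg/kg) and -0.35 to 0.05 (3 mg/kg) for both drugs. Medians for both drugs minus psilocybin stayed below 0 with any 1 library left out, at -0.34 to -0.08 (1 mg/kg) and -0.52 to -0.07 (3 mg/kg). So did those for ketanserin 3 minus 1 mg/kg (-0.26 to -0.05) and the interaction at 1 mg/kg (-0.38 to -0.05). These comparisons share groups and are not independent. Of 460 alternatives for single log2 fold changes, 456 kept their direction and side of the threshold, 1 was newly called (Ndufa1, above) and 3 were reversed, all for Ndufa1 without its high library. Leaving out 1 library gave it -0.47 to 5.51 for psilocybin at 1 mg/kg, -0.60 to 3.71 for ketanserin at 1 mg/kg and -0.87 to 3.66 for both drugs at 3 mg/kg. No paired analysis was possible because the labels number no replicates. With 4 libraries a group, the median 95% interval, for a single gene without adjustment, reached 0.49 to either side on the log2 scale.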
